A study of Mus musculus with 40 samples.

Results

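Loss of the MrgprD sensory neurons was followed in whole ear skin by RNA sequencing of 8 of the series' 40 mouse libraries, chosen by their labels: 4 from MrgprdDTR mice, whose MrgprD neurons were ablated, and 4 from MrgprdCre control mice. The remaining libraries are ear skin painted with β-alanine or PBS, mast cells sorted from skin, and cultured peritoneal mast cells, 4 per group. MrgprdCre mice carry Cre recombinase in the Mrgprd gene, as a targeted allele on a mixed background of B6 and 129S1. MrgprdDTR mice come from a cross of that line with a C57BL/6 line that holds a Cre-dependent diphtheria toxin receptor (HBEGF) at the ROSA26 locus, so the receptor appears in every cell with a history of Mrgprd expression. The protocol gives diphtheria toxin (DT) to both genotypes for 3 to 4 weeks, whereas the sample labels list DT by intraperitoneal injection for the DTR mice and the acetone and olive oil vehicle (4:1) for both, with no DT for the Cre mice. Whether the controls had toxin is therefore not settled, and genotype, toxin and the share of C57BL/6 genome cannot be told apart. The PBS and β-alanine groups used for reference were C57BL/6J mice whose ears received vehicle or 50 mM β-alanine daily for 2 days. The age of the animals is not given in the sources used here, nor is it said that each library came from a separate mouse, so p-values measure the spread between these libraries.

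MrgprD neurons are nonpeptidergic nociceptors whose cell bodies lie in the dorsal root ganglia and whose free endings run up between the keratinocytes of the epidermis. They are known to be activated by β-alanine and to carry itch and noxious mechanical signals. Ear skin around them holds epidermis, hair follicles, dermal fibroblasts and matrix, vessels, Schwann cells that wrap the dermal nerves, resident leukocytes, fat, muscle and a plate of cartilage. Background for each gene below is general knowledge and not a result of these data.

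Values are FPKM (fragments scaled by transcript length and by sequencing depth), genome build mm9, and each value below is given per library or as mean ± SD over 4 libraries. Mrgprd itself was at most 0.0081 FPKM in Cre skin and 0.0241 FPKM in DTR skin, and 23 of the 36 listed axon and sensory neuron genes lay under the expression filter, so the ablation cannot be checked from transcripts in the skin. The labels call the skin Epidermal, but dermal Col1a1 stood at 269.7, 206, 411 and 234 FPKM in Cre skin beside muscle and cartilage transcripts, as in a whole ear. Libraries of a group were alike (Pearson correlation 0.9924 to 0.9962 in Cre and 0.9945 to 0.9962 in DTR skin), total FPKM was 442857 to 469344 in Cre and 427797 to 440520 in DTR skin. Read counts were not used, so depth is known only as a ratio between libraries. Y-linked Ddx3y was at 0 FPKM in all 8 Cre and DTR libraries and at 14.7 to 16.3 FPKM in PBS skin, while Xist was at 24.5 to 37.1 FPKM in the Cre and DTR libraries and at most 0.101 FPKM in PBS skin. By these genes the ablation groups were female and the PBS group male, so PBS values are given for reference and were not tested against either.

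Of 12607 genes tested with limma on log2(FPKM + 1), 1719 (13.6%) passed at an adjusted p under 0.05, 931 of them higher (7.38% of those tested) and 788 lower (6.25%) in DTR skin. The changes were small for most: the median log2 change over all genes tested was 0.014. Every DTR value lay above every Cre value in 1493 of the genes tested and below in 1210. Mast cell transcripts were higher and fat and muscle transcripts lower, and these move beside everything that follows. Of 14 tested mast cell genes 13 rose and 0 fell, and their summed level was 87.1 to 114 FPKM in Cre, 232 to 279 FPKM in DTR and 361 to 479 FPKM in PBS skin. Of 18 adipocyte genes 14 fell and 0 rose (sums of 2535 to 3004, 1823 to 2044 and 2153 to 3135 FPKM), and of 20 skeletal muscle genes 15 fell and 1 rose (2332 to 5494, 1350 to 1811 and 3721 to 7253 FPKM). The mast cell count was 8 without DTR 2, and the adipocyte count 6 with a spread estimated over all 16 skin libraries. In a whole tissue, fewer cells of a type and less RNA per cell cannot be told apart. Outside these cell types 715 genes were tested in 36 lists of epidermis, follicle, stroma, vessel, nerve, immune system and body-wide programmes. Of these 79 rose (11%) and 47 fell (6.57%). Each list count below stands beside the shares of all genes tested, 7.38% higher and 6.25% lower. The number of calls depended on the libraries: it was 1122 without Cre library 2, 928 without Cre 4, 865 without DTR 1, 773 without DTR 2 and 989 without DTR 3, and 729 with a spread estimated over all 16 skin libraries. Centring each library on its median turned the split to 724 higher and 1029 lower. Longer transcripts had larger log2 changes: across 12507 genes with a known length, which share libraries and are not independent, Spearman's rho was 0.308, and 4 equal groups of genes from short to long had medians of -0.0577, 0.00283, 0.0331 and 0.0636. Corrected for length, 1467 genes passed, 740 higher and 727 lower.

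**Figure D1:**
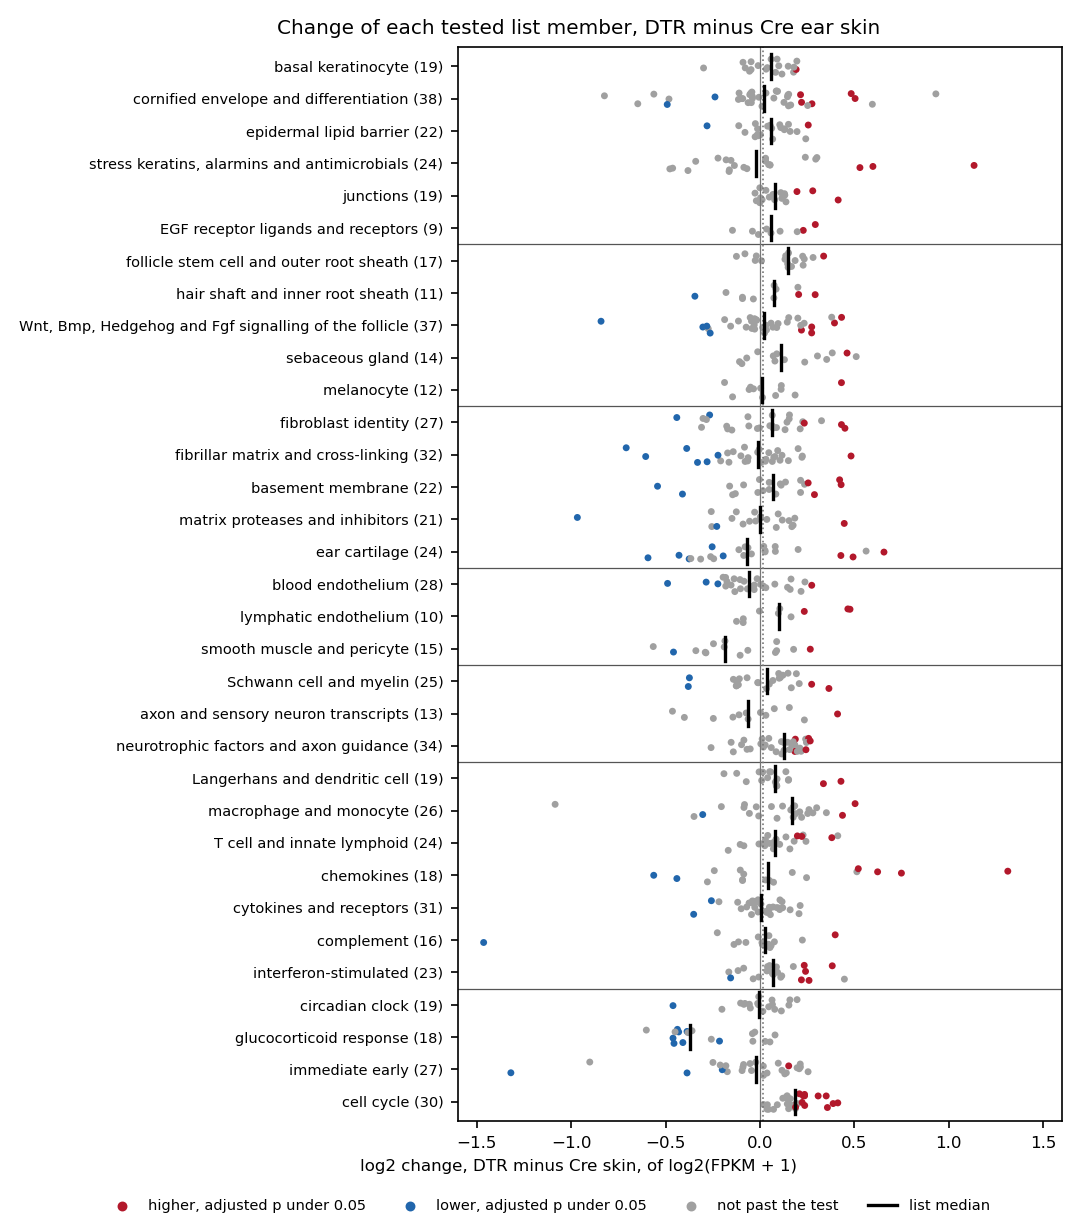
Log2 change (DTR minus Cre skin, log2(FPKM + 1)) of each tested member of the gene lists, 1 point per gene, coloured by the limma call, with the number tested in brackets. Black bars are list medians and the dotted line is the median of all genes tested (0.014). The cell cycle list lies wholly to the right of 0 (median 0.19) and the glucocorticoid response list mostly to the left (median -0.37), while most other medians lie close to 0.

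The basal keratins did not pass the test. Single genes of adhesion rose, and those of the last steps of cornification moved in both directions. Krt5 and Krt14, the paired keratins of basal cells, went from 1740.0 ± 37.01 to 1933 ± 114 FPKM and from 2113 ± 65.4 to 2251 ± 93.9 FPKM, changes that did not pass (limma adjusted p = 0.0817 and 0.232). Of 19 basal keratinocyte genes 1 rose and 0 fell (median log2 change 0.06), and their summed level was 7398 to 7764 FPKM in Cre skin and 7788 to 8380 FPKM in DTR skin. Tgm3, a transglutaminase that cross-links the cornified envelope and the inner root sheath (chromosome 2, 129838110 to 129876135), read 10.3, 11.2, 9.35 and 10.4 FPKM in the Cre and 14.1, 14.2, 17.7 and 14.4 FPKM in the DTR libraries. Every DTR value lay above every Cre value, a log2 change of 0.50 (SE 0.0758, adjusted p = 0.00451), and PBS skin was at 21.4 ± 1.79 FPKM. Spink5, the inhibitor of the kallikreins that cut corneodesmosomes, read 100.4, 110.2, 102 and 101 FPKM in Cre skin and 124, 128, 121 and 129 FPKM in DTR skin (0.28 on the log2 scale, adjusted p = 0.00486). Klk5, the kallikrein it restrains, moved the other way, from 76.5, 76.6, 72.8 and 80.6 FPKM in Cre to 63.9, 64.0, 68.2 and 63.1 FPKM in DTR skin (-0.24, adjusted p = 0.00892), with no overlap between the groups for either gene. Aloxe3, a lipoxygenase of the lipid barrier, went from 20.3 ± 1.04 to 24.4 ± 0.782 FPKM (adjusted p = 0.00873). Among adhesion genes, desmoplakin (Dsp), which ties keratin to desmosomes, was at 211, 244, 228 and 211 FPKM in Cre skin and 275, 279, 271 and 259 FPKM in DTR skin (0.28, adjusted p = 0.011), and the desmosomal cadherin Dsc2 went from 1.502 ± 0.198 to 2.33 ± 0.28 FPKM (adjusted p = 0.0125).

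Among 38 tested genes of the cornified envelope and differentiation 5 rose and 2 fell (median log2 change 0.02). Among 19 junction genes 3 rose and 0 fell (median 0.08). In the first list the 2 that fell were Klk5 and Lce3c (-0.49, limma adjusted p = 0.0446). Of its Sprr genes, Sprr1a rose (0.48, adjusted p = 0.0421). Sprr4 (0.93), Sprr1b (-0.82), Sprr2h (-0.65) and Sprr2d (-0.56) did not pass (adjusted p = 0.335, 0.103, 0.0726 and 0.159). The count of 5 was 2 or 3 when Cre 1, 2 or 4 or DTR 1, 2 or 4 was left out. The Krt10 call, of the main suprabasal keratin (5758 ± 258 to 6681 ± 200.03 FPKM, adjusted p = 0.0339), ended in 7 of the 8 fits without 1 library (adjusted p 0.0368 to 0.092). Loricrin (Lor), which makes up much of the envelope, was at 2409 ± 66.4 to 2671 ± 115 FPKM and did not pass (adjusted p = 0.0753), although no library overlapped.

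Stress keratins and antimicrobial genes did not move as a group. Of 24 such genes 3 rose, 0 fell and the median was -0.02. Krt17, a keratin of the outer root sheath that is also induced in injured epidermis, read 134, 109.6, 122 and 85.3 FPKM in Cre skin and 164, 149, 160.0 and 172 FPKM in DTR skin (0.53, adjusted p = 0.0176). Its usual companions in injury differed little or overlapped: Krt6a went from 22.4 ± 4.11 to 26.6 ± 3.70 FPKM (adjusted p = 0.215) and Krt16 from 6.39 ± 3.65 to 6.33 ± 2.91 FPKM (adjusted p = 0.96). The calgranulins S100a8 (6.67 ± 2.42 to 4.70 ± 2.41 FPKM) and S100a9 (6.59 ± 3.25 to 5.39 ± 2.11 FPKM) did not pass either (adjusted p = 0.292 and 0.613). Defb6, a beta-defensin of skin and muscle, was at 391, 418, 413 and 311 FPKM in Cre skin and 653, 590.4, 504 and 569.6 FPKM in DTR skin, a 1.51-fold rise (adjusted p = 0.0071), and PBS skin held more of it (912 ± 102 FPKM). Serpinb6d and Serpinb6c, intracellular protease inhibitors of a chromosome 13 cluster of close copies, were among the largest rises. Serpinb6d went from 86.3 ± 22.2 to 191 ± 52.2 FPKM (2.22-fold, adjusted p = 0.00942) and Serpinb6c from 3.72 ± 0.475 to 8.42 ± 2.47 FPKM (2.27-fold, adjusted p = 0.00885), and reads shared among the copies make each value uncertain. The keratinocyte alarmins did not pass the test, Il33 at 33.02 ± 3.20 to 29.4 ± 2.10 FPKM (adjusted p = 0.155) and Tslp at 2.69 ± 0.412 to 1.96 ± 0.653 FPKM (adjusted p = 0.155).

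Egfr and Erbb2, of the epidermal growth factor receptor family, rose. Egfr, the receptor through which keratinocytes read amphiregulin and related ligands (chromosome 11, 16652206 to 16813910), read 11.4, 11.4, 11.5 and 10.1 FPKM in Cre skin and 14.5, 14.004, 13.5 and 13.3 FPKM in DTR skin. All 4 DTR libraries were higher (0.29, SE 0.0512, adjusted p = 0.00792). Its partner Erbb2 went from 19.5 ± 1.07 to 22.99 ± 1.12 FPKM (adjusted p = 0.0188), and of 9 tested genes in the list of ligands and receptors 2 rose and 0 fell (median 0.06). PBS skin lay between the groups for both receptors, at 12.4 ± 0.539 and 21.5 ± 0.525 FPKM. The Erbb2 call ended with the spread of all 16 skin libraries (adjusted p = 0.0826).

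Hair follicle genes showed single changes in Wnt and related signals. Of 17 tested genes of follicle stem cells and the outer root sheath 1 rose and 0 fell, while their median log2 change was 0.15. Every DTR value lay above every Cre value in 5 of them, and in 1493 of all 12607 genes tested. Krt15 (972 ± 66.8 to 1102 ± 113 FPKM), Cd34 (49.6 ± 6.80 to 46.6 ± 3.09 FPKM) and Sox9 (18.8 ± 1.56 to 20.7 ± 0.855 FPKM), which mark the stem cell region, did not pass (adjusted p = 0.143, 0.566 and 0.145). Of 50 genes of the hair shaft and inner root sheath in the table only 11 passed the filter, of which 2 rose and 1 fell. Without Cre 4, DTR 1 or DTR 2 these were 0 and 0, without Cre 1, Cre 3 or DTR 3 they were 1 and 0, and without DTR 4 they were 1 and 1. Among 37 genes of the Wnt, Bmp, Hedgehog and Fgf pathways 5 rose and 4 fell (median 0.02). The shares of all genes tested were 7.38% and 6.25%. Axin2, a feedback target of Wnt signalling, read 13.6, 14.1, 13.6 and 12.9 FPKM in Cre skin and 16.7, 16.2, 15.7 and 15.1 FPKM in DTR skin (0.22, adjusted p = 0.0152). Sfrp2, a secreted modulator of Wnt made by dermal papilla and fibroblasts, read 16.4, 15.5, 19.9 and 15.3 FPKM in Cre skin and 20.3, 25.1, 21.2 and 22.7 FPKM in DTR skin (0.40, adjusted p = 0.0185). Neither gene's groups overlapped. Grem1, a Bmp antagonist, was low and fell from 2.27 ± 1.02 to 0.758 ± 0.116 FPKM (-0.84, adjusted p = 0.019). Edn3, the endothelin that supports melanocytes, rose from 1.70 ± 0.262 to 2.63 ± 0.138 FPKM (adjusted p = 0.00786), while the pigment genes Dct (19.2 ± 1.73 to 17.3 ± 2.02 FPKM) and Tyrp1 (6.59 ± 1.15 to 7.25 ± 1.53 FPKM) did not pass (adjusted p = 0.254 and 0.598). The calls of Axin2 and Edn3 ended with the spread of all 16 skin libraries (adjusted p = 0.0707 and 0.0521) and that of Grem1 without DTR 1 (adjusted p = 0.0523; 4 of the 8 left-out fits kept it past the filter). The pathway counts fell as low as 2 higher without Cre 2 and 1 lower without Cre 3, Cre 4 or DTR 1.

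The dermal matrix changed in parts. The main fibrillar collagens were spread widely within groups and did not pass: Col1a1 read 269.7, 206, 411 and 234 FPKM in Cre skin and 206, 239.8, 307 and 339 FPKM in DTR skin (adjusted p = 0.975). Col3a1 went from 440.2 ± 113 to 393 ± 96.3 FPKM (adjusted p = 0.593). Sparc, a collagen-binding matrix protein that fat and fibroblasts make in quantity (chromosome 11, 55208003 to 55233582), read 1442, 1141, 1494 and 1393 FPKM in Cre skin and 733, 802, 1022 and 1064 FPKM in DTR skin. It was lower in all 4 DTR libraries (-0.61, SE 0.125, adjusted p = 0.0155), close to PBS skin at 874 ± 73.4 FPKM. Elastin (Eln), the core of elastic fibres, read 182, 141, 176 and 184 FPKM in Cre skin and 91.7, 77.3, 121 and 134 FPKM in DTR skin (-0.71, adjusted p = 0.0188, and 0.0538 without DTR 1). Periostin (Postn), a matrix protein of active fibroblasts, moved the other way, from 229, 235, 304 and 225 FPKM in Cre to 294, 348, 389 and 356 FPKM in DTR skin (0.48, adjusted p = 0.0185), with Cre 3 inside the DTR range. Of 32 genes of fibrillar matrix and its cross-linking 1 rose and 6 fell (median -0.01), the latter including the cross-linking enzymes Lox (28.5 ± 2.80 to 21.7 ± 3.42 FPKM, adjusted p = 0.0354) and Loxl2 (17.2 ± 2.27 to 13.4 ± 1.05 FPKM, adjusted p = 0.0347). The Loxl2 call ended without Cre 3, Cre 4, DTR 1, DTR 2 or DTR 3 and with the spread of all 16 skin libraries (adjusted p = 0.0653). The count of 6 was 1 without DTR 1, 2 without Cre 3, Cre 4 or DTR 2, and 3 without DTR 3. The fall in the sum of adipocyte genes runs beside these genes, and its part in them was not tested.

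The tissue inhibitor Timp4, which fat and muscle also express, had 1 of the clearest falls in stroma. It read 13.99, 11.9, 12.6 and 12.7 FPKM in Cre skin and 6.52, 5.03, 6.37 and 6.43 FPKM in DTR skin (-0.97, SE 0.0766, adjusted p = 0.000109), with PBS skin at 10.8 ± 1.05 FPKM. Adamts1, a secreted protease that cuts proteoglycans, rose from 19.9 ± 0.957 to 27.6 ± 2.36 FPKM (adjusted p = 0.00264), and the lysosomal protease Ctsl fell from 158 ± 8.85 to 135 ± 3.61 FPKM (adjusted p = 0.0135). Fibroblast identity genes split as well, with 3 of 27 higher and 2 lower (median 0.07), where 7.38% of all genes tested rose and 6.25% fell. The 3 were 5 without Cre 3, and the 2 were 4 without Cre 1 and 0 with the spread of all 16 skin libraries. Thy1 rose from 77.3 ± 4.66 to 91.0 ± 2.50 FPKM (adjusted p = 0.0135) and Fbln1, a fibulin, from 5.08 ± 0.372 to 7.33 ± 0.827 FPKM (adjusted p = 0.0071). Ly6a, which marks fibroblasts of the fascia and also endothelium, fell from 132 ± 8.40 to 109.7 ± 2.21 FPKM (adjusted p = 0.00892), as did Gsn, an actin-severing protein high in fibroblasts, from 1212 ± 98.0 to 891 ± 36.8 FPKM (adjusted p = 0.0034). The calls of Fbln1, Ly6a and Gsn ended with the spread of all 16 skin libraries (adjusted p = 0.0707, 0.0664 and 0.0556).

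The zone under the epidermis also changed in single genes. Agrin (Agrn), a heparan sulfate proteoglycan of basement membranes, read 14.9, 14.03, 14.8 and 11.9 FPKM in Cre skin and 19.9, 18.7, 17.99 and 19.5 FPKM in DTR skin (0.43, adjusted p = 0.00536), without overlap. Smoc1, a matricellular protein of basement membranes, fell from 7.08 ± 1.01 to 4.52 ± 0.336 FPKM (adjusted p = 0.00639), and Col8a1, a short-chain collagen of vessel walls, from 147 ± 11.6 to 111 ± 13.2 FPKM (adjusted p = 0.0143). Of 22 tested basement membrane genes 4 rose and 2 fell (median 0.07), where 7.38% of all genes tested rose and 6.25% fell. The 4 became 8 without Cre 3, 1 without DTR 3 and 2 without any other single library. With the correction for transcript length the 4 became 1. The Col8a1 call ended under quantile normalization (adjusted p = 0.054). In cartilage, Acan, the large proteoglycan aggrecan, went from 16.98, 18.8, 17.5 and 18.1 FPKM in Cre to 11.8, 13.8, 15.1 and 13.6 FPKM in DTR skin (adjusted p = 0.00792), and its link protein Hapln1 fell from 4.88 ± 0.383 to 3.38 ± 0.451 FPKM (adjusted p = 0.0104). Dlk1, a Notch-family ligand of progenitors, rose from 2.24 ± 0.223 to 4.12 ± 0.542 FPKM (adjusted p = 0.00167, and 0.0942 with the spread of all 16 skin libraries). Of 24 cartilage genes 3 rose and 5 fell (median -0.07), 3 of the 5 remaining in number without DTR 1. Their summed level was 1022 to 1081 FPKM in Cre, 877 to 1200 FPKM in DTR and 1990 to 2846 FPKM in PBS skin.

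Among vessel genes, Pecam1 and Cdh5 did not pass the test and single others moved in both directions. Pecam1, the adhesion molecule of all endothelium, read 14.2, 12.02, 15.3 and 15.1 FPKM in Cre skin and 13.4, 12.7, 12.6 and 13.5 FPKM in DTR skin (adjusted p = 0.328). Cdh5, the endothelial cadherin, went from 5.14 ± 0.299 to 4.70 ± 0.159 FPKM (adjusted p = 0.184). Of 28 blood endothelial genes 1 rose and 3 fell (median -0.06), the fallen being Lyve1, Tie1, an endothelial receptor kinase (4.88 ± 0.296 to 4.04 ± 0.326 FPKM, adjusted p = 0.0403), and the tight junction gene Cldn5 (23.1 ± 2.55 to 18.7 ± 1.599 FPKM, adjusted p = 0.0447). The 3 were 1 without Cre 1, 3 or 4 or DTR 2 or 4 and 1 with the spread of all 16 skin libraries. The 1 that rose was 3 without Cre 3 and 0 without Cre 2 or any 1 of the DTR libraries. The largest fall in that list was Lyve1, a hyaluronan receptor best known from lymphatic vessels and some macrophages. It read 13.6, 14.6, 15.3 and 17.1 FPKM in Cre skin and 12.3, 11.1, 8.94 and 9.80 FPKM in DTR skin (-0.49, adjusted p = 0.0112), with PBS skin at 10.96 ± 2.25 FPKM. Stab1, a scavenger receptor of sinusoidal and lymphatic endothelium and of macrophages, moved the other way, from 2.63, 2.51, 3.47 and 2.51 FPKM in Cre to 4.10, 4.26, 4.11 and 4.47 FPKM in DTR skin (0.48, adjusted p = 0.00673). Of 10 tested genes of the lymphatic list, 3 rose and 0 fell, namely Stab1, Ccl21a and Thy1, the last shared with fibroblasts. Lyve1, which fell, was counted with blood endothelium and not here. Ccl21a, the chemokine that draws dendritic cells into lymphatics, went from 56.4 ± 4.57 to 78.1 ± 2.38 FPKM (adjusted p = 0.00141), but it lies among near-identical copies on chromosome 4 and its reads cannot be assigned with certainty. Mcam, an adhesion molecule of pericytes and smooth muscle, fell from 11.4 ± 1.34 to 7.98 ± 0.678 FPKM (adjusted p = 0.00818, and 0.082 with the spread of all 16 skin libraries), while the pericyte gene Rgs5 (12.7 ± 1.99 to 11.7 ± 0.807 FPKM) and the smooth muscle actin Acta2 (7.99 ± 1.76 to 6.01 ± 0.528 FPKM) did not pass (adjusted p = 0.472 and 0.096).

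**Figure D2:**
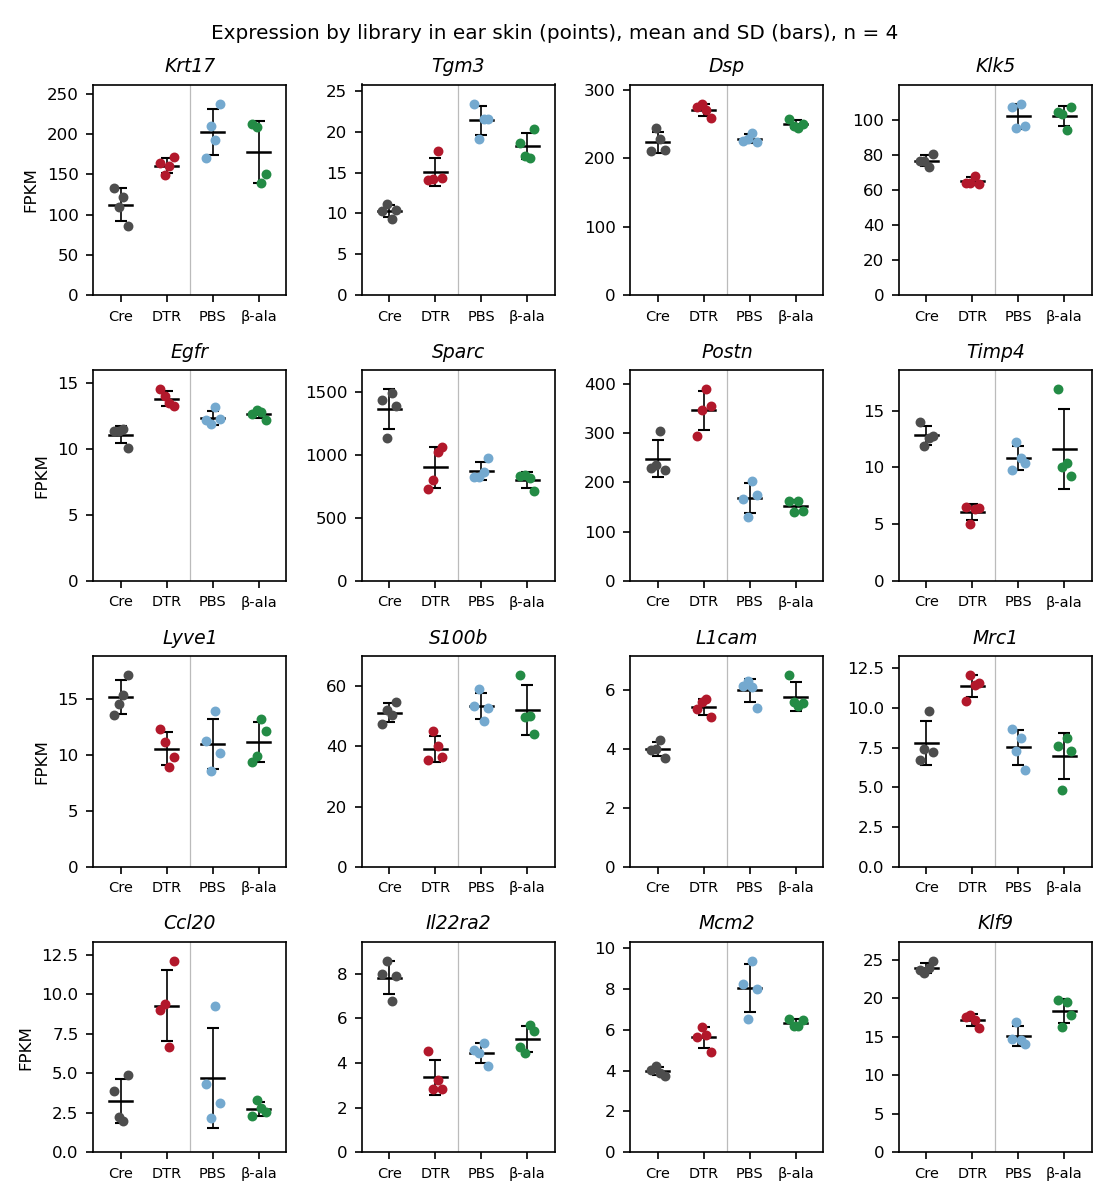
FPKM of 16 genes in the 16 ear skin libraries, 1 point per library, with the mean (horizontal bar) and SD (whiskers, n = 4 per group); Cre and DTR are the ablation groups, PBS and β-ala the painted ears. Except for Postn, where Cre library 3 reaches 304 FPKM, no DTR point overlaps a Cre point in these panels, and PBS skin sits near DTR skin for some genes (Sparc, Lyve1, Klf9) and elsewhere for others (Timp4, Mrc1, Klk5). Only called genes are shown, and Ccl20 and Il22ra2 were named by a rule that required no overlap.

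Genes of the nerve sheath gave opposite single changes. The gene of myelin basic protein, Mbp (56.4 ± 5.21 to 51.9 ± 1.86 FPKM), did not pass (adjusted p = 0.218), nor did the Schwann cell regulator Sox10 (3.17 ± 0.56 to 3.74 ± 0.298 FPKM, adjusted p = 0.176). S100b, a calcium-binding protein of Schwann cells that cartilage and fat also express, read 47.4, 52.3, 50.6 and 54.8 FPKM in Cre skin and 35.7, 45.1, 40.02 and 36.4 FPKM in DTR skin (-0.38, adjusted p = 0.012). Ncmap, a protein of compact myelin in peripheral nerve, fell from 12.7 ± 0.809 to 9.59 ± 1.13 FPKM (adjusted p = 0.0152). L1cam, an adhesion molecule of axons and nonmyelinating Schwann cells (chromosome X, 71099119 to 71126173), rose. It read 3.95, 3.9997, 4.29 and 3.69 FPKM in Cre skin and 5.32, 5.57, 5.69 and 5.08 FPKM in DTR skin (0.37, SE 0.0547, adjusted p = 0.0044), near the 5.97 ± 0.398 FPKM of PBS skin. Of 25 Schwann cell and myelin genes 2 rose and 2 fell (median 0.04), near the shares of all genes tested (7.38% and 6.25%). The 2 that rose were 1 without Cre 2, Cre 4 or any 1 of the DTR libraries.

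Of 13 axon and sensory neuron genes past the filter 1 rose and 0 fell (median -0.06). The pan-neuronal ubiquitin hydrolase Uchl1 went from 5.66 ± 1.79 to 3.95 ± 0.607 FPKM with Cre 4 alone at 8.14 FPKM (adjusted p = 0.119). The Nav1.8 channel gene Scn10a was listed at 0 in all 8 libraries, the peptide gene Calca reached at most 0.158 FPKM and the heavy neurofilament Nefh at most 0.0865 FPKM. Axons hold little RNA of their distant cell bodies. Among 34 neurotrophic and guidance genes, which include ligands and receptors, 5 rose and 0 fell, with a median of 0.13. Over all genes tested 7.38% rose and 6.25% fell. Plxnb1, a receptor for semaphorin 4D that keratinocytes also carry, read 10.5, 10.9, 10.9 and 9.34 FPKM in Cre skin and 13.6, 11.9, 12.6 and 12.7 FPKM in DTR skin (0.27, adjusted p = 0.018). The secreted semaphorin Sema3f went from 16.1 ± 0.388 to 18.4 ± 0.842 FPKM (adjusted p = 0.0213). The count of 5 was 11 without Cre 3, 3 without DTR 2 or 3, 2 without Cre 4 and 1 without DTR 1, whose removal also ended the Sema3f call (adjusted p = 0.0528), as did the spread of all 16 skin libraries (adjusted p = 0.156). A correction for transcript length ended the Plxnb1 call (adjusted p = 0.0521) and left a count of 3. The spread of all 16 skin libraries left a count of 2.

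Emr1 and Mrc1 rose among the macrophage genes, whose summed level overlapped between the groups, while the defining genes of Langerhans and T cells did not pass the test. Emr1, which encodes the macrophage antigen F4/80 (chromosome 17, 57498109 to 57622952), read 3.45, 4.01, 4.50 and 3.94 FPKM in Cre skin and 5.67, 5.73, 6.14 and 5.34 FPKM in DTR skin. Mrc1, the mannose receptor of dermal macrophages, read 6.70, 7.42, 9.83 and 7.22 FPKM in Cre skin and 10.4, 12.1, 11.4 and 11.6 FPKM in DTR skin. Neither gene's groups overlapped, with log2 changes of 0.44 (adjusted p = 0.00523) and 0.50 (adjusted p = 0.011), and PBS skin lay with the Cre group at 3.78 ± 0.485 and 7.53 ± 1.11 FPKM. The summed level of the macrophage and monocyte list was 559 to 716 FPKM in Cre and 651 to 668 FPKM in DTR skin. Of its 26 tested genes 2 rose and 1 fell, with a median of 0.17, where 7.38% of all genes tested rose and 6.25% fell. The 2 were 5 without Cre 3 and 6 with the correction for length. The 1, Ly6c1, which endothelium also expresses, was 2 without Cre 1 and 0 without DTR 2. Cd209a, a lectin of dermal dendritic cells, went from 4.62 ± 0.636 to 6.56 ± 0.7 FPKM (adjusted p = 0.016, and 0.13 with the spread of all 16 skin libraries). Cd207, the langerin of Langerhans cells, was at 15.9, 18.6, 13.9 and 18.1 FPKM in Cre skin and 15.9, 13.5, 16.4 and 14.7 FPKM in DTR skin (adjusted p = 0.36). Cd3e, a subunit of the T cell receptor complex, was at 5.15 ± 0.75 to 5.23 ± 0.676 FPKM (adjusted p = 0.915). Skint3, a keratinocyte gene of the family that selects epidermal γδ T cells, rose from 16.8 ± 1.004 to 22.2 ± 1.14 FPKM (adjusted p = 0.00301). Of 19 Langerhans and dendritic cell genes 2 rose and 0 fell (median 0.08), and of 24 T cell and innate lymphoid genes 3 rose and 0 fell (median 0.08). The 3 were Skint3, its relative Skint5 and the cytokine receptor chain Il2rg, so 2 of them are genes of keratinocytes. The number was 1 without Cre 4, DTR 2 or DTR 3 and 1 with the spread of all 16 skin libraries. Of 10 B cell genes in the table none passed the filter, and of 15 granulocyte genes 2 did.

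Chemokines moved in both directions, 4 of 18 higher and 2 lower (median 0.04). Ccl20, which draws CCR6-bearing lymphocytes and dendritic cells to epithelium (chromosome 1, 83113341 to 83115742), had the largest log2 rise of the genes named by size. It read 3.86, 2.21, 1.97 and 4.88 FPKM in Cre skin and 8.995, 9.36, 6.64 and 12.1 FPKM in DTR skin. The rise was 2.87-fold (1.31, SE 0.221, adjusted p = 0.00694), and in PBS skin 1 library reached 9.28 FPKM around a mean of 4.72 ± 3.16 FPKM. Ccl2, the monocyte chemokine, went from 3.65 ± 0.636 to 6.27 ± 1.73 FPKM (adjusted p = 0.0274), a call that ended without Cre 1, Cre 2, Cre 3 or DTR 1 (adjusted p up to 0.0713) and with the spread of all 16 skin libraries (0.254). Ccl11, the eotaxin of fibroblasts, fell from 6.29, 4.16, 5.95 and 6.12 FPKM in Cre to 3.58, 3.36, 3.27 and 3.58 FPKM in DTR skin (-0.56, adjusted p = 0.00859, and 0.0741 with the spread of all 16 skin libraries). The count of 4 was 2 without Cre 2, Cre 3 or DTR 1.
The NF-κB family acts on Ccl20 in epithelium, so the promoter letters are shown with a match to GGGNNTTCC (either strand), which 8.7% of 9356 tested genes hold in the 300 bases around their start and 4 of 13 tested chemokines with a window hold. The stretch is chr1:83116646-83116745, plus strand, RefSeq, build GRCm38.p6, upstream of the start, and the capitals mark the match.
Ccl20: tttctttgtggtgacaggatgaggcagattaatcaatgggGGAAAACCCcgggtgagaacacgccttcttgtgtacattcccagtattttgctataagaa

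The chemokine genes of chromosome 4 need care. Ccl27a, a keratinocyte chemokine for skin-homing T cells, was lower (85.6 ± 4.02 to 63.1 ± 7.60 FPKM, adjusted p = 0.00691, and 0.267 with the spread of all 16 skin libraries). Ccl19, a ligand of CCR7, was higher in 1 row (3.21 ± 0.643 to 4.998 ± 0.456 FPKM, adjusted p = 0.0113). Its second row in the region, at 2.82 ± 0.855 to 3.58 ± 0.721 FPKM, did not pass (limma adjusted p = 0.245). Rows of predicted copies in the same region changed more: Gm13305 went from 2.63 to 7.504 FPKM and LOC100861978 from 20.01 to 47.9 FPKM, whereas Gm13304 was at 8.99 and 9.38 FPKM. How reads were divided among these copies is not given in the sources used here, so none of these changes can be tied to 1 gene.

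The cytokine receptor genes Il22ra2, Il1r2 and Il20ra fell. Il22ra2, a soluble receptor that neutralizes interleukin 22, read 7.98, 8.58, 6.80 and 7.90 FPKM in Cre skin and 4.52, 2.84, 3.26 and 2.83 FPKM in DTR skin (-1.03, SE 0.113, adjusted p = 0.000938), with PBS skin at 4.45 ± 0.436 FPKM. Il1r2, the decoy receptor for interleukin 1, read 50.5, 54.5, 53.7 and 56.5 FPKM in Cre skin and 42.8, 42.04, 42.01 and 40.9 FPKM in DTR skin (-0.35, adjusted p = 0.00131). Every DTR library lay under every Cre library for Il1r2, and for Il22ra2 too, which was named by a rule that required this. Il20ra, a signalling receptor chain for interleukins 19, 20 and 24, fell from 11.2 ± 0.359 to 9.23 ± 0.783 FPKM (adjusted p = 0.0202, and 0.0626 with the spread of all 16 skin libraries). Of 31 tested cytokine and receptor genes 0 rose and 2 fell, where 7.38% of all genes tested rose and 6.25% fell. Il1r2 and Il20ra belong to that list and Il22ra2 does not. Haptoglobin (Hp), an acute-phase binder of haemoglobin that fat also makes, fell from 37.3, 29.3, 39.3 and 29.8 FPKM in Cre to 15.8, 10.1, 8.51 and 12.98 FPKM in DTR skin (-1.46, adjusted p = 0.00099), and PBS skin had 91.3 ± 31.01 FPKM. Ear5, an eosinophil-associated ribonuclease of a family of close copies, went from 74.7 ± 10.5 to 113 ± 14.1 FPKM (adjusted p = 0.00892).

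Of 23 tested interferon-stimulated genes 5 rose and 1 fell (median 0.07). Stat2 and Irf9 encode partners in the complex that carries the type I interferon signal to the nucleus. Stat2 read 4.34, 3.70, 4.26 and 3.88 FPKM in Cre skin and 6.03, 5.58, 5.27 and 5.43 FPKM in DTR skin (0.38, adjusted p = 0.00505). Irf9 read 8.98, 8.57, 8.92 and 8.71 FPKM in Cre skin and 11.2, 9.97, 10.3 and 10.7 FPKM in DTR skin (0.23, adjusted p = 0.012). Both were higher in every DTR library. Ifi27l2a, an interferon-induced gene that is not in the list, fell from 149, 125, 137 and 125 FPKM in Cre to 76.8, 63.9, 57.6 and 64.5 FPKM in DTR skin (-1.02, adjusted p = 0.000138), so the named genes did not share a direction. The count of 5 was 2 without Cre 2, Cre 4, DTR 1 or DTR 2 and 3 without DTR 3 or 4, and with the spread of all 16 skin libraries the calls of Irf9 and Ifi27l2a ended (adjusted p = 0.06 and 0.0667).
The interferon-stimulated response element was searched as GAAANNGAA on both strands, and 10 of 20 listed genes with a window held it against 8.56% of tested genes. The Stat2 match is shown in capitals in chr10:128270248-128270347 (plus strand, RefSeq, GRCm38.p6), upstream of the start.
Stat2: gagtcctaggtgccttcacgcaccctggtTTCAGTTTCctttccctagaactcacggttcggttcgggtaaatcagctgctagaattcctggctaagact

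Of 30 tested cell cycle genes 13 rose and 0 fell, and all 30 had a positive log2 change (median 0.19). Among all 12607 genes tested 7.38% rose, and 6854 had a positive log2 change. Mcm2, a subunit of the replication helicase (chromosome 6, 88833468 to 88848774), read 4.02, 4.22, 3.88 and 3.74 FPKM in Cre skin and 5.66, 6.15, 5.75 and 4.92 FPKM in DTR skin (0.41, SE 0.0642, adjusted p = 0.00505). Mki67, a marker of dividing cells, read 5.88, 6.55, 6.38 and 5.52 FPKM in Cre skin and 7.405, 8.54, 9.06 and 7.33 FPKM in DTR skin (0.36, adjusted p = 0.0153). Cdt1, which licenses replication origins, read 3.10, 3.27, 3.13 and 3.23 FPKM in Cre skin and 4.25, 4.52, 4.55 and 4.04 FPKM in DTR skin (0.35, adjusted p = 0.00383). The 3 genes were higher in every DTR library, at 1.42, 1.33 and 1.36 times the Cre mean. Rrm1, the large subunit of ribonucleotide reductase, went from 13.8 ± 0.229 to 16.4 ± 0.608 FPKM (adjusted p = 0.00802) and Uhrf1, which keeps DNA methylation through replication, from 5.15 ± 0.386 to 7.06 ± 0.815 FPKM (adjusted p = 0.0131). PBS skin was higher still for Mcm2 (8.03 ± 1.16 FPKM) and near DTR skin for Mki67 (7.87 ± 1.38 FPKM). The number that rose was 8 without DTR 2 and 2 with the spread of all 16 skin libraries, with which the calls of Cdt1, Rrm1 and Uhrf1 ended (adjusted p = 0.0518, 0.086 and 0.055). The summed mast cell level rose in the same libraries, and its part in this shift was not tested.
E2F factors drive many replication genes, and their site was searched as TTTCCCGC or TTTGGCGC on both strands. Of 24 listed cell cycle genes with a window 5 held it (20.8%), against 307 of 9356 tested genes (3.28%). Stretches of 2 helicase genes that rose, Mcm5 (4.98 ± 0.132 to 5.92 ± 0.448 FPKM, adjusted p = 0.0342) and Mcm6 (12.2 ± 0.774 to 14.5 ± 1.19 FPKM, adjusted p = 0.0368), are shown with 1 match each in capitals. With the spread of all 16 skin libraries neither call remained, and Mcm2 and Mki67 alone passed. The stretches are chr8:75109320-75109419 (plus strand) for Mcm5 and chr1:128359706-128359805 (minus strand) for Mcm6, RefSeq, build GRCm38.p6. A further Mcm6 match, with its first base at -110 from the start, lies outside the stretch shown.
Mcm5: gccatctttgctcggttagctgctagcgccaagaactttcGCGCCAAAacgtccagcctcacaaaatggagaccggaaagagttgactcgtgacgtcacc
Mcm6: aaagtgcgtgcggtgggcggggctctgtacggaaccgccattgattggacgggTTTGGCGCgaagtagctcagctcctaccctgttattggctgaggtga

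Of 18 tested genes that answer to glucocorticoid hormone 7 fell and 0 rose, with a median log2 change of -0.37, and 11 did not pass. Among all genes tested 6.25% fell. Klf9, a transcription factor induced by the receptor (chromosome 19, 23215716 to 23241401), read 23.7, 23.3, 23.96 and 24.9 FPKM in Cre skin and 17.6, 17.8, 17.2 and 16.1 FPKM in DTR skin (-0.46, SE 0.0435, adjusted p = 0.000414). Tsc22d3, the leucine zipper protein GILZ, read 63.8, 60.6, 66.8 and 58.4 FPKM in Cre skin and 42.7, 51.4, 45.7 and 43.7 FPKM in DTR skin (-0.44, adjusted p = 0.00355). Per1, which is both a clock gene and a direct glucocorticoid target, read 15.2, 13.9, 14.5 and 12.3 FPKM in Cre skin and 9.62, 10.5, 9.13 and 10.2 FPKM in DTR skin (-0.46, adjusted p = 0.00344). The groups did not overlap for any of the 3, and PBS skin was close to DTR skin (15.1 ± 1.28, 41.5 ± 3.07 and 9.02 ± 0.654 FPKM). Fkbp5, a further classical target, was at 16.2 ± 2.65 to 12.4 ± 1.66 FPKM and just missed the threshold (adjusted p = 0.0558). Of 19 clock genes Per1 alone passed, while Dbp (38.7 ± 0.537 to 33.7 ± 4.09 FPKM) and Arntl (16.3 ± 0.494 to 17.1 ± 1.51 FPKM) did not (adjusted p = 0.0897 and 0.454). Some listed targets, such as Hsd11b1 (7.25 ± 0.803 to 5.12 ± 0.569 FPKM, adjusted p = 0.012), are also expressed in fat, whose summed level fell in the same libraries, and the part of fat in the list was not tested. The time of day at which tissue was taken is not given in the sources used here. In the windows around their starts, 2 of 15 glucocorticoid genes held the cAMP element TGACGTCA (3.45% of tested genes did). The E-box CACGTG was held by 4 of 15 clock genes and by 4 of 15 glucocorticoid genes (11.7% of tested genes). A site of the glucocorticoid receptor itself was not searched.

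Immediate early genes did not move together: of 27, 1 rose and 3 fell (median -0.02). Fos, a subunit of the AP-1 transcription factor that is quickly induced by stimulation or handling, read 11.2, 23.3, 18.1 and 10.3 FPKM in Cre skin and 6.25, 5.71, 4.73 and 4.92 FPKM in DTR skin. Its DTR values lay in a narrow range (-1.32, SE 0.212, adjusted p = 0.00572), while the Cre values themselves differed widely. Egr1, induced by many of the same stimuli, went from 19.99 ± 3.05 to 24.2 ± 4.82 FPKM and did not pass (adjusted p = 0.227). The serum response core, searched as CCATATTAG on both strands, was in 0 of 21 windows of listed genes and in 0.0962% of those of all tested genes.

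Several of the largest changes fell outside the lists. Alad, the second enzyme of haem synthesis, read 9.66, 9.43, 8.85 and 8.29 FPKM in Cre skin and 24.1, 24.3, 20.04 and 20.98 FPKM in DTR skin (2.47-fold, 1.21, SE 0.0706, adjusted p = 1.01e-05). Its neighbour on chromosome 4, Hdhd3 (62160088 to 62163234, beside Alad at 62167018 to 62181097), rose 2.50-fold, from 2.37 ± 0.134 to 5.92 ± 0.962 FPKM (adjusted p = 0.000278). The genes on either side of the pair did not: Bspry was at 11.1 ± 1.18 to 11.2 ± 0.662 FPKM (adjusted p = 0.915) and Pole3 at 42.2 ± 1.54 to 38.5 ± 3.15 FPKM (adjusted p = 0.144). Neat1, the long noncoding RNA that builds nuclear paraspeckles, read 346, 248, 294 and 205 FPKM in Cre skin and 493, 562, 524 and 539 FPKM in DTR skin (1.94-fold, adjusted p = 0.00248). Psmc3ip, a cofactor of meiotic recombination that is widely expressed at low level, was closely grouped on either side, 11.8, 11.2, 11.1 and 11.1 FPKM in Cre skin and 4.56, 4.62, 4.46 and 5.06 FPKM in DTR skin (-1.12, SE 0.0478, adjusted p = 3.07e-06). Lars2, the mitochondrial leucyl tRNA synthetase, fell from 121, 108, 131 and 136 FPKM in Cre to 31.5, 43.1, 29.02 and 44.2 FPKM in DTR skin (-1.73, adjusted p = 7.66e-05), with PBS skin far above both at 340.1 ± 22.5 FPKM. Cyp2g1, a cytochrome P450 of olfactory and glandular epithelium, read 77.7, 57.6, 71.4 and 54.8 FPKM in Cre skin and 10.4, 7.98, 30.7 and 4.78 FPKM in DTR skin (-2.49, adjusted p = 0.00613) but only 0.47 ± 0.258 FPKM in PBS skin. Its relative Cyp2f2 fell from 36.4 ± 8.41 to 15.7 ± 2.56 FPKM (adjusted p = 0.00245), as did Nnat, the imprinted neuronatin of nerve, gland and fat, from 17.8, 9.20, 19.2 and 18.9 FPKM in Cre to 4.31, 2.87, 3.15 and 3.91 FPKM in DTR skin (-1.88, adjusted p = 0.000813). These 3 belong to a list of ear gland genes of which 4 of 6 tested fell (median -0.79), and the part of gland tissue in these falls was not tested.

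**Figure D3:**
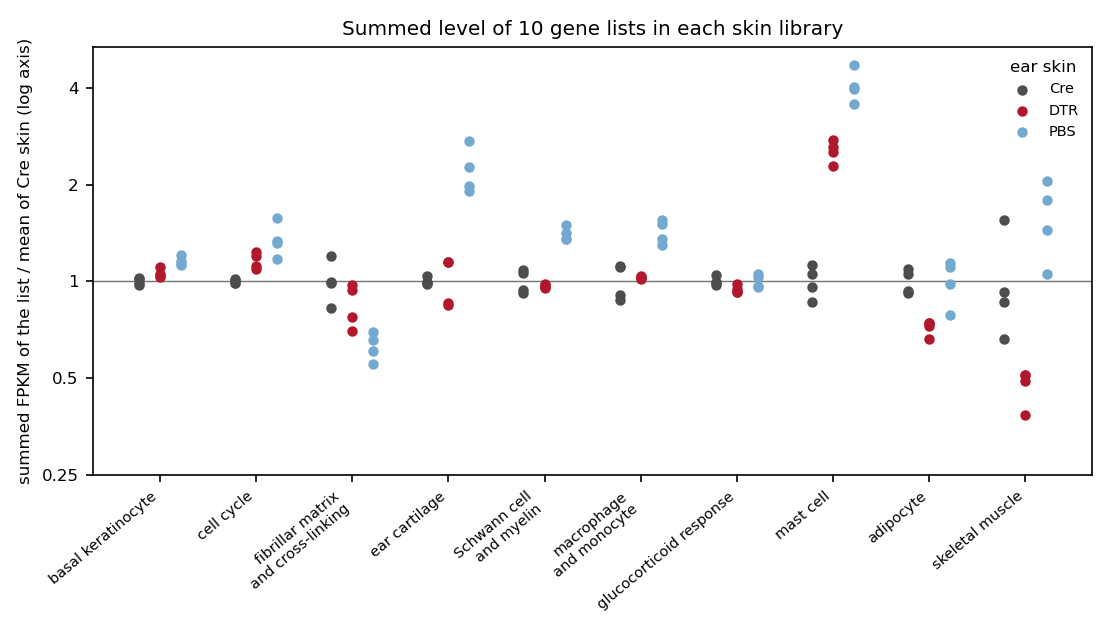
Summed FPKM of 10 gene lists in each Cre, DTR and PBS skin library, divided by the mean of the Cre libraries (log axis), 1 point per library. Mast cell sums of DTR skin lie above and adipocyte sums below those of Cre skin, and the cell cycle sums lie higher in all 4 DTR libraries. PBS skin lies outside both ablation groups for the basal keratinocyte, fibrillar matrix, cartilage, Schwann cell, macrophage and mast cell lists.

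Painting β-alanine on the ears, which activates the same neurons, gave a second contrast with controls of its own. The 2 changes were set against each other by an interaction term over 16 skin libraries. Sex (female in the ablation groups and male in the painted groups by their transcripts), strain background and vehicle also differ between the 2 contrasts. They cannot be told apart from the treatments in this term. Of 12995 genes tested, 866 (6.66%) had a DTR minus Cre change that differed from the β-alanine minus PBS change, 700 with the larger value for ablation and 166 with the smaller. After median centring these were 339 and 347, so the imbalance depends on scaling. The number was 476 without Cre 2, 375 without Cre 4, 464, 443 and 543 without DTR 1, 2 and 3, 482 and 554 without PBS 1 and 3, and 1492 without β-alanine library 1. Neat1 rose with ablation and stood at 262 ± 21.9 FPKM in PBS and 147 ± 14.2 FPKM in β-alanine skin, a difference of changes of 1.81 (SE 0.171, interaction adjusted p = 1.19e-05). For Alad the difference was 1.44 (adjusted p = 1.19e-05), with 12.6 ± 1.23 and 10.7 ± 1.71 FPKM in PBS and β-alanine skin. Klf9, lower with ablation, was at 15.1 ± 1.28 FPKM in PBS and 18.4 ± 1.61 FPKM in β-alanine skin (-0.72, adjusted p = 0.000335). Serpinb1a, an inhibitor of neutrophil proteases, went from 10.7 ± 0.967 to 15.5 ± 1.38 FPKM with ablation and was 18.97 ± 2.38 FPKM in PBS and 10.05 ± 1.80 FPKM in β-alanine skin (1.36, adjusted p = 0.000142). Clec10a, a galactose lectin of dermal macrophages and dendritic cells, went from 15.6 ± 1.84 to 19.9 ± 1.40 FPKM (ablation adjusted p = 0.0221, ended without Cre 2, DTR 2 or DTR 4, up to 0.0621) against 18.8 ± 1.52 FPKM in PBS and 10.3 ± 1.29 FPKM in β-alanine skin (1.15, adjusted p = 7.06e-05). Of the cell cycle list 13 of 30 and of the glucocorticoid list 5 of 18 passed the interaction test. Fos and Psmc3ip were lower in both contrasts, with PBS means of 10.3 ± 1.36 and 10.4 ± 0.792 FPKM and β-alanine means of 3.38 ± 0.395 and 4.34 ± 0.268 FPKM, and their interaction terms of 0.05 (SE 0.261, adjusted p = 0.929) and -0.03 (SE 0.0813, adjusted p = 0.867) did not pass.

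**Figure D4:**
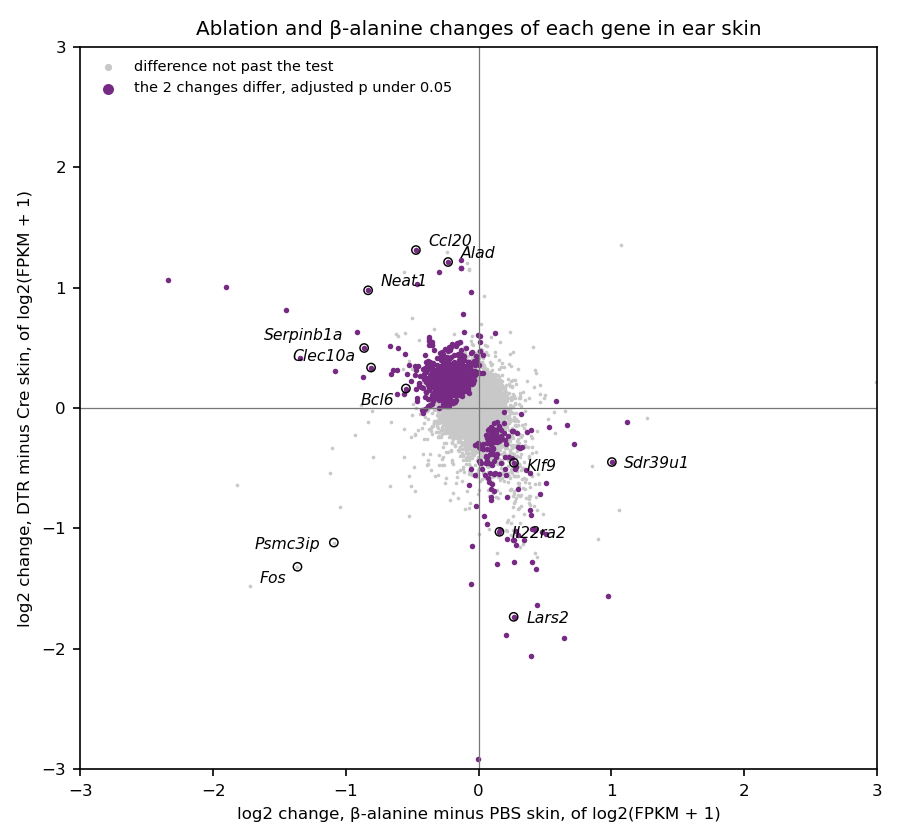
Log2 change with ablation (DTR minus Cre, vertical) against log2 change with topical β-alanine (β-alanine minus PBS, horizontal) for 12602 genes, each on log2(FPKM + 1); purple marks genes whose 2 changes differ at an adjusted p under 0.05, and 5 genes lie beyond the axes. Neat1, Alad and Ccl20 sit high on the ablation axis at or left of 0 on the other, and Fos and Psmc3ip sit low on both.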

How the data were processed

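RNA of whole ear skin was sequenced, and the authors deposited FPKM values, made with STAR and Cufflinks on build mm9 per the submitters' processing notes. Versions, annotation, filters and treatment of reads shared by gene copies are not given in the sources used here. The table has 23812 rows and 23304 distinct symbols. Ratios between the lowest values put library depths within 0.963 to 1.07 of replicate 1 of the same group, and absolute depth is unknown. Groups follow the sample labels. Genes reaching 1 FPKM in 4 or more of the 8 (for the interaction, 16) libraries were tested on log2(FPKM + 1), without further scaling, by limma 3.58.1 in R 4.3.3 (trend, two-sided, Benjamini-Hochberg adjustment, called under 0.05). Log2 changes are on that scale and understate changes of low genes. Python 3.11.15 with pandas 2.3.3 and matplotlib 3.10.9 did the rest, and the procedure was tested on simulated data.

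The members and the 41 gene lists were chosen with earlier results of these data known. Named genes were the 15 largest changes per direction (at least 5 FPKM in the higher group, no overlap, without predicted genes and the mast cell, fat, muscle and blood lists), the defining list members, up to 4 called members per list, and 10 of the interaction with β-alanine. For genes named by size, a lack of overlap was required by the rule and is no added support. Of 141 so named and called, those given at length were mostly among the 100 whose calls no left-out library ended, a choice made after seeing the values, as were Krt16, Xist, Ddx3y and further members named without a call. Some genes that the rule names are not reported here. Promoter windows (250 bases before and 50 after a start, RefSeq, GRCm38.p6) were matched by symbol for 9356 tested genes. Alternatives were other pseudocounts (0.1, 5), the filter dropped or set to 5 FPKM, centring on medians, quantile normalization, a replicate block, no trend, a spread shared by 16 skin libraries, each library left out and, added after seeing the data, a correction for the longest GENCODE transcript, since the table holds no lengths.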

Additional observations from a re-analysis of the deposited data

Results flagged for a closer look

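Among 116 of the genes given values above, 232 groups of 4 libraries were searched for 1 library standing apart by Dixon's criterion. In all 17 were found, where chance gives about 1 in 20. Single DTR libraries stood above the other DTR libraries for Tgm3 in DTR 3 (17.7 FPKM against 14.1 to 14.4 FPKM), Krt16 in DTR 2 (10.7 FPKM against 4.83 to 4.92 FPKM), Adamts1 in DTR 4 (31.1 FPKM against 26.05 to 26.6 FPKM), Ctsl in DTR 1 (140.0 FPKM against 132 to 133 FPKM) and Arntl in DTR 1 (19.4 FPKM against 16.2 to 16.6 FPKM). Single Cre libraries stood above the other Cre libraries for Spink5 in Cre 2 (110.2 FPKM against 100.4 to 102 FPKM), Krt16 in Cre 4 (11.8 FPKM against 3.75 to 5.06 FPKM), Postn in Cre 3 (304 FPKM against 225 to 235 FPKM), Stab1 in Cre 3 (3.47 FPKM against 2.51 to 2.63 FPKM), Pole3 in Cre 1 (44.5 FPKM against 41.3 to 41.5 FPKM) and Psmc3ip in Cre 1 (11.8 FPKM against 11.1 to 11.2 FPKM). Single Cre libraries stood below the other Cre libraries for Dsc2 in Cre 4 (1.21 FPKM against 1.57 to 1.64 FPKM), Egfr in Cre 4 (10.1 FPKM against 11.4 to 11.5 FPKM), Adamts1 in Cre 1 (18.5 FPKM against 20.3 to 20.5 FPKM), Ccl11 in Cre 2 (4.16 FPKM against 5.95 to 6.29 FPKM) and Nnat in Cre 2 (9.2 FPKM against 17.8 to 19.2 FPKM). A single DTR library stood below the other DTR libraries for Timp4 in DTR 2 (5.03 FPKM against 6.37 to 6.52 FPKM).

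The ablation and β-alanine changes differed by the interaction test (limma, Benjamini-Hochberg over all genes tested) in 43 of the 116 genes. The value given for each is the DTR minus Cre change less the β-alanine minus PBS change, in log2 units, over 4 libraries per group. It was above 0 for Neat1 (1.81, adjusted p = 1.19e-05), Ccl20 (1.78, adjusted p = 0.0191), Hdhd3 (1.49, adjusted p = 0.000827), Alad (1.44, adjusted p = 1.19e-05), Serpinb6d (1.43, adjusted p = 0.0427), Serpinb1a (1.36, adjusted p = 0.000142), Clec10a (1.15, adjusted p = 7.06e-05), Egr1 (1.13, adjusted p = 0.00202), Serpinb6c (1.02, adjusted p = 0.0102), Ccl19 (0.87, adjusted p = 0.016), Uhrf1 (0.77, adjusted p = 0.0117), Krt17 (0.73, adjusted p = 0.0467), Tgm3 (0.73, adjusted p = 0.00214), Adamts1 (0.72, adjusted p = 0.00669) and Mcm2 (0.70, adjusted p = 0.00229). Smaller positive values were those of Stab1 (0.70, adjusted p = 0.0153), Cdt1 (0.63, adjusted p = 0.0191), Postn (0.62, adjusted p = 0.0479), Defb6 (0.58, adjusted p = 0.0479), Sox9 (0.53, adjusted p = 0.00804), Thy1 (0.49, adjusted p = 0.00623), Mcm5 (0.49, adjusted p = 0.0228), Stat2 (0.47, adjusted p = 0.0091), Agrn (0.45, adjusted p = 0.0282), Mcm6 (0.45, adjusted p = 0.0174), L1cam (0.41, adjusted p = 0.0136), Krt14 (0.37, adjusted p = 0.0414), Aloxe3 (0.31, adjusted p = 0.0414) and Egfr (0.26, adjusted p = 0.038). It was below 0 for Cyp2g1 (-2.43, adjusted p = 0.00869), Nnat (-2.09, adjusted p = 0.0437), Lars2 (-1.999, adjusted p = 0.000692), Hp (-1.41, adjusted p = 0.0422), Il22ra2 (-1.19, adjusted p = 0.000379), Cyp2f2 (-1.10, adjusted p = 0.0244), Timp4 (-1.03, adjusted p = 0.00603), Dct (-0.81, adjusted p = 0.0165), Klf9 (-0.72, adjusted p = 0.000335), Per1 (-0.63, adjusted p = 0.0013), Tsc22d3 (-0.55, adjusted p = 0.0358), Col8a1 (-0.48, adjusted p = 0.0375), Il1r2 (-0.45, adjusted p = 0.0186) and Il20ra (-0.41, adjusted p = 0.0369). The PBS and β-alanine mice were male by Y-linked genes and the Cre and DTR mice female. Strain background and vehicle differ between the 2 contrasts as well. None of these can be told apart from the treatment in this term.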

How the results depend on the processing

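Against 1719 calls (931 higher, 788 lower), the number moved by over 1.5 times with the spread of 16 skin libraries (729 in all, 451 higher and 278 lower) and, for lower genes, with no filter on low values (525). Without 1 library in turn it was 773 to 1512 in all, 388 to 878 higher and 385 to 709 lower. Genes with unequal ablation and β-alanine changes numbered 866, 523 with the replicate block and 375 to 1492 with 1 library left out. The other settings kept both totals within 1.5 times. With the replicate number as a replicate block 1507 genes were called (771 higher, 736 lower). Same-numbered Cre and DTR libraries correlated in their deviations by 0.049, 0.139, -0.046 and 0.135. Cre 2 and Cre 4 correlated best with the DTR library of their own number, while Cre 1 and Cre 3 did not. Such small correlations cannot settle whether the numbers pair the samples. Of 141 named calls 75 were ended by no alternative and 66 by at least 1, none with a change of direction. Calls ended numbered 49 with the shared spread, 32 with no filter, 17 with the length correction, 11 with median centring, 11 with quantile normalization, 9 without the trend, 8 with the block, 0 with the other pseudocounts and filter, and 16 to 33 with 1 library left out. With 4 libraries a group and unknown depth, genes under 1 FPKM were not tested and genes of few FPKM carry unstated counting error.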
